A study of Mus musculus with 28 samples.

Results

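The alveolar macrophage (AM) miRNome of male co-ex mice was compared after ozone (O3) and after filtered air (FA). The members were all 412 miRNAs listed in the deposited table that holds library columns JFRm81 to JFRm88, out of 607 different miRNAs listed over the whole series. That table gives 8 of the 28 libraries of the series, 4 from males exposed to FA and 4 from males exposed to O3. Both groups were 12-week-old humanized transgenic males, labelled strain C57BL/6, which lacked mouse surfactant protein A (SP-A) and carried human SP-A1 and SP-A2 together (6A2/1A0, called co-ex). Exposure lasted 3 h, the groups were exposed in parallel, and AM were taken by lung lavage after 4 h of recovery. The 4 libraries of a group are numbered separately in the labels, and the methods describe 4 animals an exposure. Responses were also compared with those of co-ex females (4 libraries an exposure) and of SP-A knockout (KO) males (3 an exposure). Those mice were also 12 weeks old, with the same exposure and recovery times. The libraries were bulk small RNA, so fewer cells of a type and less RNA per cell cannot be told apart. The question put to the libraries was which AM miRNAs O3 changes in males that make both human SP-A proteins.

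AM are the resident phagocytes of the airspace, and SP-A, a collectin of lung surfactant, binds to them and influences how they take up particles and respond to microbes. O3 is an inhaled oxidant that injures the airway lining and brings an inflammatory response. An miRNA is cut from a hairpin whose 5p and 3p arms can each give a mature strand, of which usually one is kept in excess. The seed, the stretch near the 5′ end of the mature strand, pairs with target mRNAs, so miRNAs that share a seed have overlapping predicted targets.

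The miRNAs below are shown because their FA and O3 libraries were the ones that separated, or because the results turn on a partner arm or a shared seed. Sequences and coordinates are from RefSeq on GRCm38.p6, written 5′ to 3′ with the seed, bases 2 to 8, in capitals, and host genes are from the GENCODE vM21 annotation. The first pair are the arms of the miR-191 hairpin, which lie in an exon of the non-coding transcript 4833445I07Rik next to miR-425, miR-191-5p at chr9:108568325-108568347 and miR-191-3p at chr9:108568367-108568388 on the plus strand.
miR-191-5p: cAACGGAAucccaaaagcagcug
miR-191-3p: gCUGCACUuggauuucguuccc

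The other miRNAs whose libraries separated came from different loci and had different seeds. let-7i-5p (chr10:122985698-122985719, minus strand) lies in an exon of a transcribed pseudogene and miR-22-3p (chr11:75463772-75463793, plus strand) in an exon of the non-coding Mir22hg. Intronic positions were annotated for miR-5098 in Rest (chr5:77272767-77272787, plus strand), miR-574-5p in Fam114a1 (chr5:64970328-64970350, plus strand), miR-1981-3p in Marc2 (chr1:184822409-184822429, minus strand) and miR-764-5p in Htr2c (chrX:147002285-147002303, plus strand). miR-96-5p (chr6:30169506-30169528, minus strand) has no annotated host gene and lies within 10 kb of miR-182 and miR-183. No sequence was at hand for miR-185-5p, miR-709, miR-30d-5p or miR-133a-3p, which are named only.
let-7i-5p: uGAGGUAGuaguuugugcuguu
miR-22-3p: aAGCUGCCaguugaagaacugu
miR-5098: gUUACAUGgugaagcccaguu
miR-574-5p: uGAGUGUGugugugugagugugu
miR-96-5p: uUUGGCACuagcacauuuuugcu
miR-1981-3p: cAUCUAACccuggccuuugac
miR-764-5p: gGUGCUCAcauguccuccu

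Further sets are shown for their seeds or base composition. The let-7 members let-7a-5p (chr13:48538239-48538260, minus strand) and let-7f-5p, also on chromosome 13, carry the seed of let-7i-5p. miR-3473b (chr10:41670774-41670793, plus strand) and miR-3473e (chr5:31667296-31667316, minus strand, intron of Rbks) share both their seed and most of their length, so reads cannot be assigned between them with certainty. miR-101b-3p (chr19:29135338-29135356, plus strand, intron of Rcl1) starts 1 base before the point where its paralogue miR-101a-3p (chr4:101346957-101346977, minus strand) starts, so the entries have different seeds. miR-6538 (chr12:26414970-26414988, minus strand, intron of Rnf144a) is 94.7% G and C.
let-7a-5p: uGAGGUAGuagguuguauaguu
let-7f-5p: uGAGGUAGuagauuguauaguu
miR-3473b: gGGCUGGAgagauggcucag
miR-3473e: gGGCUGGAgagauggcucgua
miR-101a-3p: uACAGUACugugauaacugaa
miR-101b-3p: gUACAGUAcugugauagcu
miR-6538: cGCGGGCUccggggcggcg

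Values are the deposited normalised values, reads of a miRNA divided by 1 factor for its library. The libraries held 126398 to 891030 recovered reads after FA and 209935 to 517721 after O3, and the shallowest were FA libraries 3 and 4 (126398 and 181805 reads). A count of 3 reads, taken as the limit of detection, was worth between 1.12 and 8.17 units, and covers counting error only. On the first principal component of the tested miRNAs (29.0% of the variance) FA libraries 3 and 4 stood apart, and on the second (20.6%) O3 libraries 2 and 4 did. Across miRNAs, which are not independent replicates, each FA library was no closer to the other FA libraries (median r 0.814 to 0.841) than to the O3 libraries (0.830 to 0.906), whereas the O3 libraries ranged from 0.870 to 0.879 with their own group and from 0.833 to 0.884 with FA. For many miRNAs given library by library below, the estimate is also given without FA libraries 3 and 4 or without O3 libraries 2 and 4. Where no such value is given, the estimate may still have moved. Of 6 miRNAs listed as markers of macrophages and other myeloid cells, miR-223-3p, miR-142a-3p and miR-142a-5p were present in every library. miR-223-5p, miR-511-3p and miR-511-5p were at 0 in FA library 3 and some of them in others. The list does not set macrophages apart from other myeloid cells or from other blood cells. Epithelial markers made up 0.647% to 3.94% of the reads after FA and 0.494% to 5.76% after O3.

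None of the 10 most abundant miRNAs separated the exposures. miR-21a-5p, an miRNA induced in inflamed and proliferating tissue, was at 28350, 25185, 8419 and 22670 in the FA libraries and at 29399, 16660, 35660 and 40777 in the O3 libraries. FA library 3 was low and the groups overlapped. Its mean was 21156 ± 8803 (SD, n = 4) after FA and 30624 ± 10407 after O3, a log2 fold change of 0.60 (95% interval -0.37 to 1.57), or 0.12 without FA libraries 3 and 4.

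let-7a-5p gave 34504, 21098, 13645 and 15011 after FA against 33014, 27159, 31602 and 20038 after O3. The 2 low FA libraries were the shallow ones, and the log2 fold change was 0.48 (-0.32 to 1.28), or 0.02 without them. let-7f-5p gave 24533, 20481, 9239 and 9900 after FA against 26138, 24924, 25972 and 16072 after O3, with a log2 fold change of 0.64 (-0.22 to 1.503), or 0.03 without FA libraries 3 and 4. FA libraries 3 and 4 were again the lowest, and O3 library 4 was low among the O3 libraries.

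miR-125a-5p and miR-99b-5p, which are made with let-7e from a single cluster on chromosome 17, were nearly level. miR-125a-5p ranged from 9224 to 54589 after FA and from 16514 to 33105 after O3 (log2 fold change -0.01, -1.12 to 1.10). The range of miR-99b-5p was 16572 to 41905 after FA and 13194 to 27042 after O3 (log2 fold change -0.23, -1.06 to 0.60). FA library 3 was the highest of the 8 for both. miR-146b-5p, an NF-κB-induced brake on Toll-like receptor signalling, was at 24880, 21414, 16694 and 11288 after FA and at 30260, 16533, 25920 and 14647 after O3. The groups overlapped, with a log2 fold change of 0.23 (-0.58 to 1.04). It was -0.14 without FA libraries 3 and 4 and 0.65 without O3 libraries 2 and 4.

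miR-23a-3p, miR-30d-5p and let-7d-5p were the abundant miRNAs whose change was most closely bounded. miR-23a-3p, a member of the miR-23/24/27 clusters, spanned 10706 to 26160 after FA and 12275 to 22272 after O3 (log2 fold change -0.06, -0.87 to 0.76). For miR-30d-5p the values were 10351 to 18304 and 11485 to 16253 (log2 fold change -0.06, -0.79 to 0.67). let-7d-5p held 5411 to 10401 after FA and 6172 to 8785 after O3, with a log2 fold change of 0.01 (-0.73 to 0.74), whose sign turned under other scalings of the libraries. miR-26a-5p ranged from 7286 to 17436 after FA and from 6401 to 15492 after O3 (log2 fold change -0.16, -1.02 to 0.70). Library 2 was the highest in both groups for this miRNA.

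**Figure D1:**
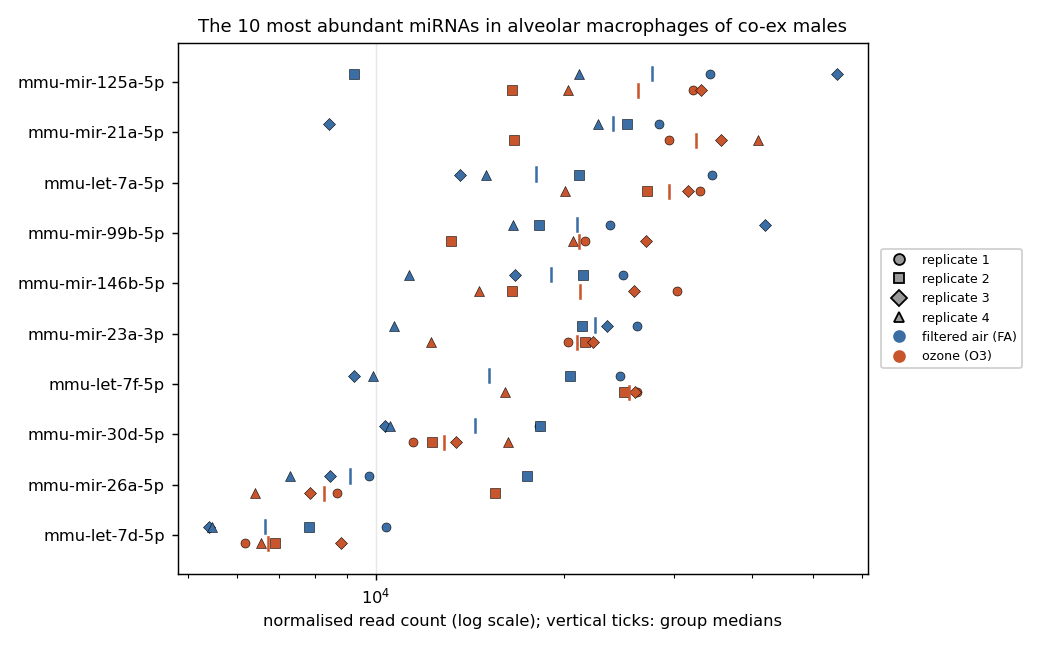
The 10 most abundant miRNAs of the co-ex males, 1 row a miRNA, against the normalised read count on a log axis, with FA libraries in blue, O3 libraries in orange, the replicate as the marker shape and ticks at the group medians. The groups overlap for every one of the 10, and for let-7a-5p, let-7f-5p and miR-21a-5p the lowest points are FA libraries, at 13645, 9239 and 8419.

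Across the table no miRNA passed the test between the exposures. Of 412 miRNAs, 312 reached a value of 5 in at least 4 libraries and were tested, and 100 did not, which together held 0.0558% to 0.232% of a library's reads. Using limma with Benjamini-Hochberg adjustment, 0 of the 312 had an adjusted p under 0.1 (a background of 0%), and the smallest adjusted p was 0.944. At an unadjusted p under 0.05 limma gave 11 miRNAs (3.53% of those tested), 8 higher (2.56%) and 3 lower (0.962%) after O3. On the recovered reads no miRNA was called by edgeR with TMM, edgeR with the deposited factors or DESeq2, which gave 14, 14 and 21 at an unadjusted p under 0.05.

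These libraries left room for changes of moderate size. The median half-width of the 95% interval of the log2 fold change was 1.58 over the 312 miRNAs, falling from 2.40 for those with a mean under 10 to 0.92 for those with a mean over 1000. Fold changes beyond 2-fold were estimated for 69 miRNAs (22.1%), 47 higher and 22 lower after O3, none of which passed the test. For 11 miRNAs (3.53%) the whole interval lay within 2-fold, and 10 of these were among the 50 with a mean over 1000. The count was 23 with the replicate block, 1 without the trended prior and 3 to 13 with 1 library left out. Besides miR-23a-3p, miR-30d-5p and let-7d-5p they were miR-103-3p, miR-1298-5p, miR-652-3p, miR-181a-5p, miR-24-3p, miR-320-3p, miR-378a-3p and miR-501-3p. miR-181a-5p, a regulator of lymphocyte signalling, held 2279 to 4136 after FA and 1973 to 4002 after O3 (log2 fold change 0.06, -0.74 to 0.85). The log2 fold changes had a median of 0.18 and 182 of the 312 were above 0 (58.3%).

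**Figure D2:**
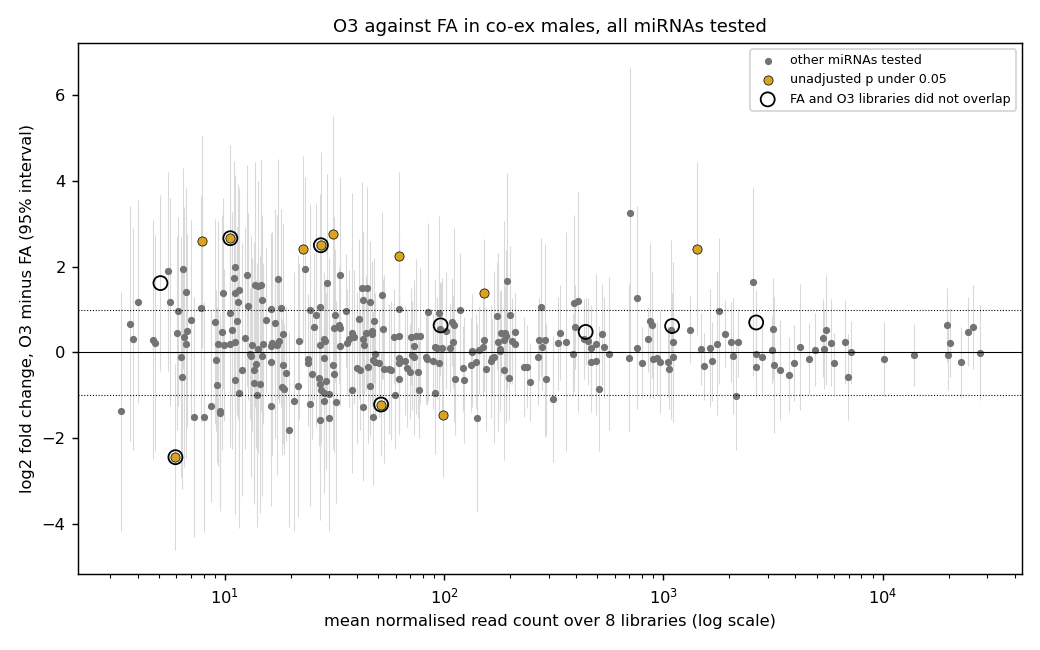
The log2 fold change, O3 minus FA, of the 312 tested miRNAs with its 95% interval, against the mean normalised read count over the 8 libraries on a log axis, with dotted lines at -1 and 1. Filled yellow points are the 11 with an unadjusted p under 0.05, and open rings are the 9 whose libraries did not overlap. The intervals narrow as the mean rises.

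In all, 9 of the 312 miRNAs gave no overlap between the exposures (2.88%), 7 with O3 above FA (2.24%) and 2 with O3 below FA (0.641%), and none passed the adjusted test (limma adjusted p = 0.944 for each). miR-96-5p and miR-1981-3p reached the filter value of 5 in the libraries of 1 exposure alone. For them, passing the filter already fixed the separation. The most abundant of the 9 was let-7i-5p, of the let-7 family that holds back growth and cell cycle genes. It was at 2844, 2345, 1441 and 1621 after FA and at 2942, 3613, 3360 and 3024 after O3. The highest FA library lay just under the lowest O3 library. The means were 2063 ± 651 and 3235 ± 310.5 (SD, n = 4) and the log2 fold change 0.70 (-0.06 to 1.45), or 0.32 without FA libraries 3 and 4.

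miR-22-3p, the main strand of a hairpin expressed in many cell types, was tight after FA at 908, 879, 766 and 858, and was at 1388, 1830, 1022 and 1116 after O3. All O3 libraries were above all FA libraries. The log2 fold change was 0.62 (-0.14 to 1.38), and 0.55 without FA libraries 3 and 4. Its partner strand miR-22-5p was at 36.0, 42.6, 0 and 0 after FA and at 49.4, 50.4, 38.9 and 31.8 after O3. The FA libraries at 0 were the 2 shallow ones, in which 3 reads were worth 8.17 and 4.38 units. The fitted log2 fold change of 2.76 (0.02 to 5.50) fell to 0.10 without them.

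miR-185-5p had 463, 342, 343 and 335 after FA and 468, 568, 535 and 482 after O3. Only FA library 1 came close to the O3 range. The log2 fold change was 0.48 (-0.30 to 1.26). miR-574-5p, a strand mostly of alternating G and U, was at 68.9, 65.7, 81.7 and 78.9 after FA and at 180, 108, 90.8 and 97.1 after O3. O3 library 1 was the highest, and the log2 fold change was 0.63 (-0.35 to 1.61).

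Other separated miRNAs were low in all or most libraries. miR-5098 was at 3.13, 4.48, 5.45 and 1.46 after FA and at 6.40, 166, 17.3 and 15.2 after O3, with O3 library 2 standing out. Its log2 fold change was 2.50 (0.33 to 4.66), or 1.42 without O3 libraries 2 and 4. FA libraries 3 and 4 held 2 and 1 reads of it, under the limit of 3 reads. In FA library 3 that limit was worth 8.17 units, above the value of O3 library 1, so the separation lies within the limit of detection. miR-96-5p, which is made with miR-182 and miR-183 and is best known from sensory epithelium, was at 2.35, 3.73, 0 and 2.92 after FA and at 5.49, 6.84, 7.20 and 12.1 after O3 (log2 fold change 1.62, -0.43 to 3.66). Its log2 fold change was 1.11 without FA libraries 3 and 4. miR-96-5p reached 5 in the O3 libraries alone, so passing the filter fixed its separation. Its cluster partners miR-182-5p and miR-183-5p had log2 fold changes of -0.10 (-2.11 to 1.91) and -0.12 (-1.93 to 1.69), intervals that include the estimate for miR-96-5p. The values of miR-191-3p are given with its partner arm further on.

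Both miRNAs with O3 below FA lie in introns. miR-1981-3p was at 11.8, 8.21, 5.45 and 16.1 after FA and at 1.83, 4.28, 0 and 0 after O3, with a log2 fold change of -2.44 (-4.60 to -0.28). The O3 values were at or near the limit of detection. miR-1981-3p reached 5 in the FA libraries alone, so passing the filter fixed its separation. miR-764-5p, from an intron of the serotonin receptor gene Htr2c, was at 47.8, 78.0, 109 and 54.1 after FA and at 42.1, 16.2, 39.6 and 25.8 after O3 (log2 fold change -1.21, -2.42 to -0.01). Without FA libraries 3 and 4 it was -1.05, and without O3 libraries 2 and 4 it was -0.73.

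**Figure D3:**
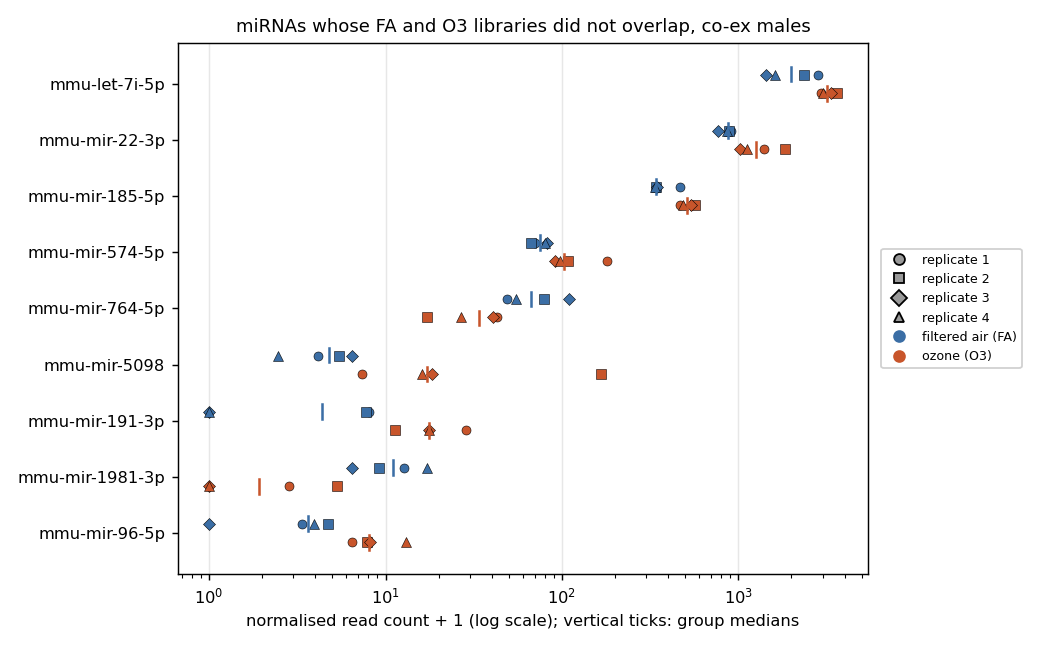
The 9 miRNAs whose FA and O3 libraries did not overlap, 1 row a miRNA, against the normalised read count with 1 added on a log axis, with FA in blue, O3 in orange, the replicate as the marker shape and ticks at the group medians. The gap between the groups is narrow for let-7i-5p (2844 to 2942) and miR-185-5p (463 to 468), and miR-5098 lies low except in O3 library 2 (166).

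Other miRNAs among the 11 with an unadjusted p under 0.05 overlapped between the groups, and for each of the 11 the limma adjusted p was 0.944. miR-101b-3p, which shares an origin with miR-101a-3p and is known to repress the histone methyltransferase Ezh2, was at 150, 87.3, 27.2 and 97.9 after FA and at 182, 125, 249 and 293 after O3. Its log2 fold change was 1.38 (0.11 to 2.64), and 0.81 without FA libraries 3 and 4. miR-101a-3p was at 150, 93.3, 51.8 and 208 after FA and at 147, 112, 277 and 359 after O3 (log2 fold change 0.85, -0.39 to 2.10). For both, O3 libraries 3 and 4 were the highest of the 8.

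miR-1249-3p was at 110, 41.8, 338 and 118 after FA and at 49.4, 23.1, 69.2 and 37.9 after O3 (log2 fold change -1.46, -2.90 to -0.02). FA library 3 was the highest, and the value was -0.69 without FA libraries 3 and 4. miR-872-3p, from an intron of Ift74, was at 11.8, 10.5, 5.45 and 0 after FA and at 17.4, 90.6, 11.5 and 34.9 after O3, with O3 libraries 2 and 4 high and a log2 fold change of 2.41 (0.25 to 4.57), or 1.29 without FA libraries 3 and 4 and 1.45 without O3 libraries 2 and 4. miR-218-5p, encoded in introns of both Slit2 and Slit3, was found after FA in library 2 alone (13.8) and after O3 at 5.49, 8.55, 12.2 and 22.7, with a log2 fold change of 2.59 (0.11 to 5.07) that depends on the added 1 where libraries are at 0, and was 1.62 without FA libraries 3 and 4.

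The groups of related miRNAs showed no called member. Beside each count stands the median log2 fold change, to be read against 0.18 over all tested miRNAs. Of all 312 tested, 58.3% had estimates above 0, 3.53% an unadjusted limma p under 0.05 and 2.88% no overlap between the groups. By edgeR with TMM on the recovered reads the median over all tested miRNAs was -0.07, so values near 0 change sign with the scaling.

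Of the 10 let-7 family members all 10 had estimates above 0, beside 58.3% of all tested miRNAs. The count was 8 when scaled to the library total, by edgeR or by DESeq2, where let-7d-5p and let-7e-5p lay below 0. The median was 0.54 and the range 0.01 to 0.75. Groups did not overlap for 1 member (let-7i-5p), beside 2.88% of all tested miRNAs. Members differ by few bases, so reads may be shared between them. Their summed value had a lowest, median and highest of 40203, 59620 and 94750 after FA and of 61190, 86414 and 102236 after O3, so the groups overlapped. Without FA libraries 3 and 4 the median was 0.08, and without O3 libraries 2 and 4 it was 0.51.

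Among miRNAs known to respond to NF-κB or Toll-like receptor signals, 5 of the 9 listed were tested and all 5 had estimates above 0 under each scaling, with a median of 0.46. In the main fit 58.3% of all tested miRNAs had estimates above 0. Without FA libraries 3 and 4 the median was 0.12 and miR-146b-5p was at -0.14. miR-155-5p, which promotes inflammatory signalling by repressing Socs1, ranged from 92.9 to 244 after FA and from 129 to 305 after O3 (log2 fold change 0.46). miR-146a-5p, the close relative of miR-146b-5p, ranged from 155 to 370 and from 167 to 577 (log2 fold change 0.21). miR-132-3p had the largest estimate of the list at 1.4997, with a lowest FA library at 0. The hypoxia-induced miR-210-3p was too low to be tested, at 0 to 8.17 after FA and 0 to 6.48 after O3.

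Of the 6 myeloid markers 3 had estimates above and 3 below 0 (median 0.16), or 2 and 4 by edgeR and DESeq2, and the median was -0.51 without FA libraries 3 and 4. miR-223-3p, which restrains neutrophil activation, was at 4955, 4566, 5280 and 2605 after FA and at 4499, 2064, 3779 and 2122 after O3 (log2 fold change -0.52, -1.38 to 0.35), or -0.03 without O3 libraries 2 and 4. FA library 4 and O3 libraries 2 and 4 were the low ones. miR-142a-5p ranged from 772 to 1511 after FA and from 645 to 1172 after O3 (log2 fold change -0.13).

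Markers of other cells that lavage can hold varied more between libraries than between exposures. Of 14 tested epithelial markers 10 had estimates above 0 and 4 below (median 0.27, or -0.78 without O3 libraries 2 and 4), and their summed value reached 10470 in 1 FA library and 21193 in O3 library 2. miR-34b-3p, of multiciliated cells, ranged from 197 to 2000 after FA and from 210 to 4384 after O3, and miR-200b-3p, which maintains the epithelial state, from 357 to 3639 and from 566 to 4484. For the 7 tested miRNAs of fibroblasts, smooth muscle and vessels the median was 0.25, with 4 above and 3 below 0, whereas by edgeR and DESeq2 all 7 lay below 0 and the median was -0.9996 by edgeR with TMM. The lymphocyte miRNA miR-150-5p ranged from 94.8 to 379 after FA and from 127 to 382 after O3.

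Both tested striated muscle miRNAs had estimates below 0, except that miR-133a-3p lay above 0 when scaled to the library total. miR-1a-3p was at 16.5, 78.4, 35.4 and 175 after FA and at 19.2, 21.4, 20.2 and 13.6 after O3 (log2 fold change -1.497, -3.09 to 0.09), or -0.94 without FA libraries 3 and 4. The red cell miRNA miR-486b-5p was at 380, 1358, 793 and 1185 after FA and at 2750, 6366, 1214 and 329 after O3 (log2 fold change 0.96, -0.74 to 2.67). The red cell marker miR-451a was at 0 to 5.45 after FA and at 1.52 to 51.3 after O3, too low to be tested, and miR-144-3p was not listed. The part of any of these cell types in the results above was not tested.

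The miR-29 family, which represses collagen and other matrix genes, had 3 of 3 estimates above 0 (median 0.37; 2 of 3 by edgeR with TMM), and miR-29c-3p, the highest at 1.18, ranged from 8.17 to 43.3 after FA and from 37.5 to 92.9 after O3. The miR-30 family had 3 above and 2 below (median 0.19; 2 and 3 by edgeR and DESeq2), and the miR-23/24/27 clusters 2 above and 3 below (median -0.06). Of 9 tested members of the growth-promoting miR-17, miR-106a and miR-106b clusters 4 were above and 5 below 0 (median -0.13). miR-92a-3p, the most abundant of them, was at 2546, 2688, 3256 and 3299 after FA and at 2207, 1945, 2504 and 2724 after O3 (log2 fold change -0.33, -1.02 to 0.36).

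The 23 miRNAs that the study singled out over its groups were chosen on these samples among others, so their counts are not independent evidence. Of the 23, 12 had estimates above 0 and 11 below (median 0.06; 9 and 14 by edgeR with TMM), and miR-101b-3p alone had an unadjusted p under 0.05. miR-16-5p, a repressor of the cell cycle, ranged from 2172 to 8887 after FA and from 4682 to 7182 after O3 (log2 fold change 0.22).

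**Figure D4:**
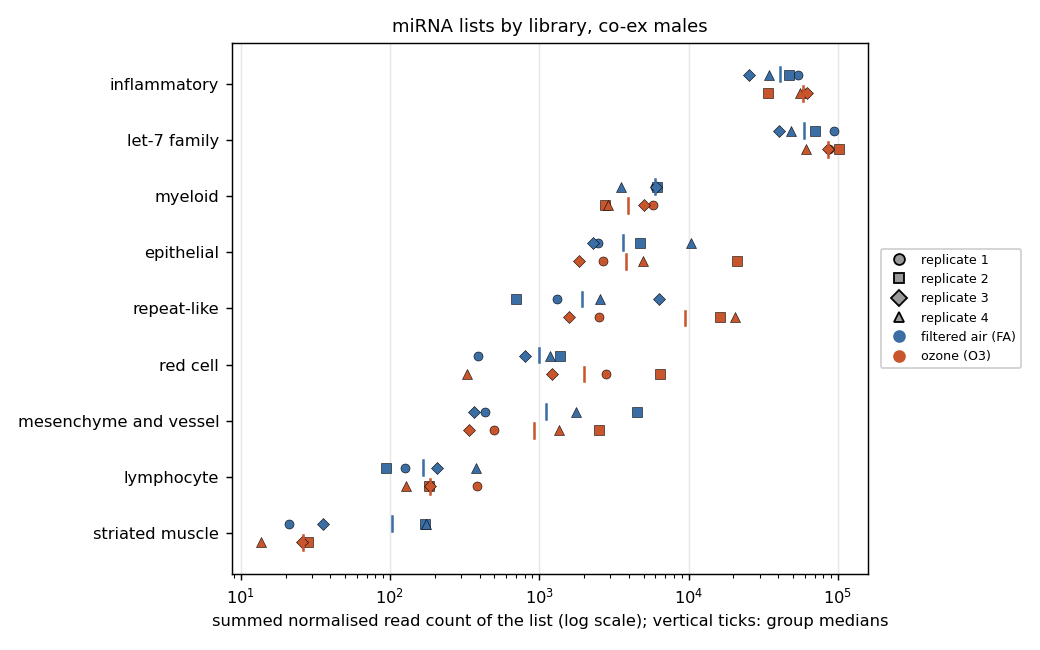
Summed normalised read count of 9 miRNA lists in each library on a log axis, 1 row a list, with FA in blue, O3 in orange, the replicate as the marker shape and ticks at the group medians. The groups overlap in every row, and the epithelial sum reaches 21193 in O3 library 2.

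A further list held small RNAs listed as miRNAs that resemble repeats or abundant non-coding RNA, or are almost wholly G and C. Of 12 tested, 11 had estimates above 0 (median 1.30, and 10 by edgeR and DESeq2), beside 58.3% of all tested miRNAs. An unadjusted limma p under 0.05 was found for 2, beside 3.53% of all tested. The median was 0.01 without O3 libraries 2 and 4 and 2.34 without FA libraries 3 and 4. miR-3473e was at 312, 63.5, 747 and 326 after FA and at 492, 5948, 444 and 3097 after O3. O3 libraries 2 and 4 stood far above the others, while O3 libraries 1 and 3 lay within the FA range. The log2 fold change was 2.42 (0.41 to 4.43), with 3.32 without FA libraries 3 and 4 and 0.82 without O3 libraries 2 and 4.

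miR-709 was at 10.97, 4.11, 27.2 and 17.5 after FA and at 29.3, 309, 20.2 and 81.9 after O3 (log2 fold change 2.25, 0.31 to 4.20). Without FA libraries 3 and 4 it was 3.03, and without O3 libraries 2 and 4 it was 0.92. miR-2137 was at 462, 151, 2433 and 930 after FA and at 843, 3306, 466 and 11885 after O3 (log2 fold change 1.65, -0.56 to 3.86), and was level at -0.01 without that pair but 2.90 without FA libraries 3 and 4. In each of them the high O3 libraries were the same pair, and FA library 3 was the highest FA library.

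miR-6538 had the largest spread within groups of the 312 (pooled SD of 2.98 on the log2 scale). It was at 38.4, 23.5, 210 and 4.38 after FA and at 54.9, 2164, 22.3 and 3109 after O3. O3 libraries 2 and 4 were at least 2164 and the other O3 libraries within the FA range. The log2 fold change was 3.24 (-0.17 to 6.65), and 0.16 without that pair. The next widest were miR-214-3p (0 to 222 after FA, 3.60 to 35.9 after O3), miR-133a-3p (0 to 94.1 and 0 to 7.32), miR-3060-5p (1.87 to 62.7 and 0 to 91.0) and miR-199b-3p (8.77 to 860 and 23.8 to 284). For miR-133a-3p, miR-214-3p and miR-199b-3p the highest of the 8 libraries was FA library 2.

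Summing miRNAs that share a seed gave 219 families that could be tested, of which 36 had 2 or more listed members. The other families were single miRNAs, for which the test largely repeats the one above. limma called 0 of the 219 (0%) and gave 9 at an unadjusted p under 0.05 (4.11%), with 7 whose libraries did not overlap (3.2%). These 7 were all single miRNAs, and for miR-96-5p and miR-1981-3p among them the filter fixed the separation. Of the 9, the only family with more than 1 member was that of miR-3473b and miR-3473e. miR-3473b and miR-3473e together were at 323, 75.03, 831 and 352 after FA and at 509, 6016, 450 and 3103 after O3, a log2 fold change of 2.30 (0.39 to 4.22, limma adjusted p = 0.878). The other families with the smallest p were miR-191-3p and miR-5098, each alone with its seed. edgeR with TMM, edgeR with the deposited factors and DESeq2 gave 13, 13 and 19 families at an unadjusted p under 0.05. DESeq2 called 1 of them, which is miR-6538 alone (log2 fold change 4.51, DESeq2 adjusted p = 0.0781), whose limma log2 fold change was 3.24 with an adjusted p of 0.878.

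The arms of the miR-191 hairpin were the exception. miR-191-5p, the main strand, was at 4101, 5081, 954 and 1657 after FA and at 688, 1035, 1142 and 2505 after O3 (log2 fold change -1.004, -2.27 to 0.26), or -1.93 without FA libraries 3 and 4. FA libraries 1 and 2 were the highest, and the shallow FA libraries lay among the O3 libraries. miR-191-3p, the minor strand, was at 7.05, 6.72, 0 and 0 after FA and at 27.4, 10.3, 16.6 and 16.7 after O3 (log2 fold change 2.66, 0.49 to 4.83), or 1.17 without FA libraries 3 and 4, the shallow pair that held none of it. Every O3 library was above every FA library for the minor strand.

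In reads, the FA libraries held 5234, 13613, 350 and 1134 of miR-191-5p with 9, 18, 0 and 0 of miR-191-3p. The O3 libraries held 752, 1210, 1585 and 1652 of miR-191-5p with 30, 12, 23 and 11 of miR-191-3p. The minor strand was 0.172% of the hairpin's reads in FA library 1 (exact 95% Clopper-Pearson interval 0.0785 to 0.326%) and 0.132% in FA library 2 (0.0783 to 0.209%). A count of 0 in FA libraries 3 and 4 allows shares of up to 0.857% and 0.265% when set at 3 reads, and has exact upper limits of 1.05% and 0.325%. The share was 3.84% (2.60 to 5.43%), 0.982% (0.508 to 1.71%), 1.43% (0.909 to 2.14%) and 0.661% (0.331 to 1.18%) in the O3 libraries. The exact intervals of the O3 libraries lay above those of FA libraries 1, 2 and 4. That of FA library 3 overlapped those of O3 libraries 2, 3 and 4 and lay below that of O3 library 1. For O3 library 4 the gap was narrow, from 0.331% to upper limits of 0.326% and 0.325% in FA libraries 1 and 4. The intervals leave out the spread between animals. They may be too narrow even for counting error, since amplified reads are not independent molecules.

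The ratio of the arms was tested for the 66 hairpins with both arms above the filter. For miR-191 the log2 ratio of 5p to 3p, each a normalised value with 1 added, was 8.99, 9.36, 9.90 and 10.70 after FA and 4.60, 6.52, 6.02 and 7.15 after O3. The groups did not overlap, and the means were 9.74 ± 0.74 and 6.07 ± 1.09 (SD, n = 4). The ratio fell by 3.66 on the log2 scale (SE 0.65, 95% interval -5.14 to -2.19), with a limma adjusted p of 0.0213. It was the 1 hairpin of 66 called (1.52%), beside 5 at an unadjusted p under 0.05 (7.58%) and 3 whose libraries did not overlap (4.55%). The call rests on the values given to FA libraries 3 and 4, which had no read of the 3p arm and whose ratio therefore depends on the scaling and on the number added. From the recovered reads with 1 read added, an alternative chosen after seeing the data, the ratio was 9.03, 9.48, 8.46 and 10.15 after FA and 4.60, 6.54, 6.05 and 7.11 after O3, a change of -3.21 (adjusted p = 0.0406) with groups that did not overlap. With every value under 3 reads set to 3 reads the change was -2.38 (adjusted p = 0.397) and FA library 3 (6.87) came below O3 library 4 (7.23). With 0.1 added in place of 1 it was -5.33 (adjusted p = 0.182), and with FA libraries 3 and 4 left out -3.10 (adjusted p = 0.309), while over leaving out 1 library at a time it ranged from -4.02 to -3.17 with adjusted p-values of 0.0194 to 0.0890.

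The hairpins of miR-1981 and miR-1839 were next by p. For miR-1981 the log2 ratio changed by 2.22, with the 3p arm at or near the limit of detection after O3. That arm passed the filter through the FA libraries alone, so the miR-1981 ratio is not independent evidence. For miR-1839 the ratio was 4.28, 5.03, 3.71 and 4.60 after FA and 5.50, 5.85, 5.43 and 5.57 after O3. The miR-1839 groups did not overlap, with a change of 1.18 (0.17 to 2.19), and both hairpins had a limma adjusted p of 0.405.

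**Figure D5:**
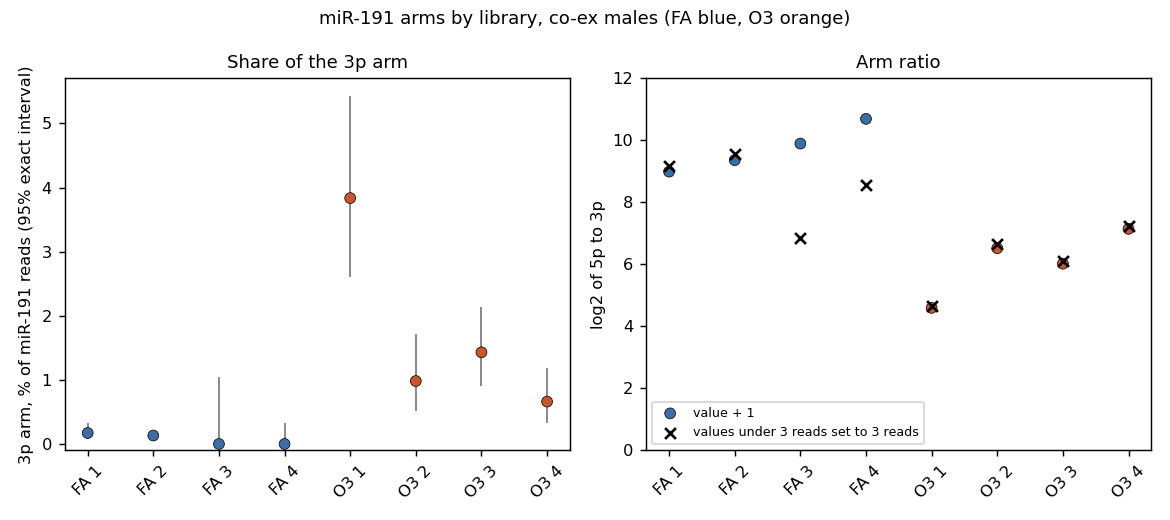
The arms of the miR-191 hairpin by library, FA in blue and O3 in orange. The left panel gives the share of its reads from the 3p arm in percent with exact 95% intervals, and the right panel the log2 ratio of 5p to 3p with 1 added (circles) or with values under 3 reads set to 3 reads (crosses). The O3 shares run from 0.661% to 3.84% and the FA shares from 0 to 0.172%, and the cross of FA library 3 (6.87) lies below that of O3 library 4 (7.23).

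The miR-191 ratio was set against that of co-ex females and of KO males. KO females were not examined. In co-ex females the ratio was 5.14 to 7.13 after FA and 3.57 to 9.004 after O3, a change of 0.51. Their 3p arm held 1 to 28 reads after FA and 0 to 28 after O3. Female O3 libraries 2 and 4 had no read of it, so their ratios (8.77 and 9.004) depend on the number added. In KO males, which lack any SP-A, the ratio was 8.22 to 8.78 after FA and 7.66 to 10.3 after O3, a change of 0.21. Their 3p arm held 26 to 80 and 11 to 111 reads. The change in co-ex males differed from that in co-ex females by -4.17 (limma adjusted p = 0.164 over 39 hairpins) and from that in KO males by -3.88 (limma adjusted p = 0.132 over 66 hairpins), so neither difference passed the threshold.

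The O3 response of co-ex males was also compared with that of co-ex females and of KO males, for miRNAs that passed the filter in both tables compared. KO females were left out here too. Tables were normalised separately, so changes within tables were compared and not levels. Against co-ex females limma called 0 of 249 (0%), with 8 at an unadjusted p under 0.05 (3.21%). The first of these was miR-486b-5p, with log2 fold changes of 0.96 in males and -3.19 in females, a difference of 4.15 (1.86 to 6.45, limma adjusted p = 0.319). Females were at 2134 to 22316 after FA and at 432 to 657 after O3, and the male groups overlapped. This difference was called by edgeR with TMM (5.25, adjusted p = 0.0313), by edgeR with the deposited factors (5.42, adjusted p = 0.0434) and by DESeq2 (5.19, adjusted p = 0.000176), and by limma without O3 male library 4 (4.92, adjusted p = 0.0201). The low O3 male library was number 4 (329), and the part of red cells in the libraries was not tested.

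Against KO males limma called 0 of 305 (0%), with 6 at an unadjusted p under 0.05 (1.97%) and a smallest adjusted p of 0.949. let-7i-5p was first, with 0.70 in co-ex males and -0.54 in KO males, a difference of 1.24. For miR-191-3p the changes were 2.66 and -0.42.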

How the data were processed

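Small RNA libraries of AM were made by the authors with the NEXTflex Small RNA kit v3 and sequenced as single reads on an Illumina instrument. Per the labels and methods, reads were filtered with CASAVA and the FASTX-Toolkit, trimmed of adapters and aligned and counted with Chimira. The study names edgeR and TCC for differential expression. For exposure and sex it also names t-tests, Mann-Whitney tests and ANOVA with Bonferroni comparisons. The genome build and the mismatches allowed are not given in the sources used here. The deposited values are a signal, the reads of each mature miRNA divided by 1 factor for each library, and the table of each genotype and sex was normalised on its own. All values (100%) were whole multiples of the library's smallest nonzero value (tolerance 0.0001), which gave the reads. The deposited fold change, p, adjusted p and rank columns were not used.

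Depth was 126398 to 891030 reads a library, so 3 reads were worth 1.12 to 8.17 units. The filter kept miRNAs that reached 5 in 4 or more libraries (3 or more in the KO table of 6). They were tested on log2(value + 1) with limma 3.58.1 in R 4.3.3, using a trended prior and Benjamini-Hochberg adjustment at 0.1. Fold changes of low miRNAs on this scale depend on the added 1 and can be understated or, where libraries are at 0, overstated. For miR-22-5p the log2 fold change was 2.76, while the O3 mean was 2.17 times the FA mean. p-values measure the spread between the numbered libraries. Arm ratios were tested without the trend, and O3 responses were compared between tables as differences of changes. Tests were also run on simulated data with large changes built in. That checks their working and not their power for smaller changes in these libraries. Alternatives were the scaling to the library total, no filter, a mean of at least 10, a pseudocount of 0.1, a replicate block, no trended prior, leaving out each library, edgeR 4.0.16 and DESeq2 1.42.0 on the recovered reads and, added after the data were seen, leaving out a pair of libraries and, for arm ratios, a floor of 3 reads and the recovered reads with 1 read added.

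Sequences matched 356 of the 412 miRNAs by name. The miRNAs, lists and tests were chosen with earlier results of these data known. Named are the 10 most abundant, the 10 with the smallest p, those whose groups did not overlap, the 5 with the widest spread, list members and the leading families and hairpins. Same-numbered FA and O3 libraries did not deviate together, so the numbers were not used to pair them.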

Additional observations from a re-analysis of the deposited data

Results flagged for a closer look

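In 11 of the 98 groups of 4 libraries examined (11.2%), the highest or lowest library lay so far from the others that its gap to the nearest one exceeded Dixon's 95% critical share of the range. Chance gives about 1 in 20 for groups picked blindly, which is no yardstick here, since some of these miRNAs were named for their wide spread within groups. The part of any cell type or of depth in these values was not tested.

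FA library 2 was the high library 4 times. It had 94.1 of the muscle miRNA miR-133a-3p (0 to 4.70 in the other FA libraries), 860 of miR-199b-3p (8.77 to 74.4) and 222 of miR-214-3p (0 to 12.5), both of connective tissue, and 13.8 of miR-218-5p (0 in the others). FA library 1 had 463 of miR-185-5p (335 to 343), FA library 3 had 210 of miR-6538 (4.38 to 38.4), and the summed myeloid markers were lowest in FA library 4 at 3531 (5926 to 6171).

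Among the O3 libraries, library 2 had the highest summed epithelial markers at 21193 (1843 to 4985) and 166 of miR-5098 (6.40 to 17.3). O3 library 4 was the lowest for let-7f-5p at 16072 (24924 to 26138 in the other O3 libraries) and for the summed striated muscle miRNAs at 13.6 (25.9 to 28.2).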

How the results depend on the processing

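No setting called a miRNA between the exposures or an O3 response that differed from KO males. DESeq2 called 1 seed family (main 0). The response of miR-486b-5p that differed from co-ex females was 1 call by edgeR with TMM, edgeR with the deposited factors and DESeq2, and 0 to 1 with 1 library left out. The arm ratio call (1) became 0 with a pseudocount of 0.1, with a floor of 3 reads and without FA libraries 3 and 4, and 1 to 2 with 1 library left out, the second being miR-1981 without O3 library 2 (change 2.96, adjusted p = 0.0804). Intervals within 2-fold numbered 11, and 23 with the replicate block, 1 without the trended prior, 1 without O3 libraries 2 and 4, and 3 to 13 with 1 library left out. The arm ratio call was kept from recovered reads with 1 read added. The cause was not tested. The replicate block rests on numbers that do not pair the libraries (correlations of deviations -0.0076, 0.139, -0.103 and 0.114), and it changed no other call.

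Single miRNAs whose log2 fold change reversed were all near 0 or widely spread, none past the test. let-7d-5p was -0.0928 scaled to the total, -0.11 with TMM, -0.0346 by edgeR with the deposited factors, -0.0348 by DESeq2, and -0.36 without FA libraries 3 and 4. miR-133a-3p was 0.22 scaled to the total, 0.68 with a pseudocount of 0.1 and 0.64 without O3 libraries 2 and 4. miR-199b-3p was -0.9996, -0.90 and -0.89, miR-214-3p -2.0036, -1.84 and -1.82, by TMM, the deposited factors and DESeq2, and miR-29a-3p was -0.0562 with TMM. Without FA libraries 3 and 4, miR-125a-5p was 0.46, miR-146b-5p -0.14, miR-199b-3p -1.73, miR-214-3p -2.11, miR-29a-3p -0.55 and miR-3060-5p 0.79. Without O3 libraries 2 and 4, miR-125a-5p was 0.41, miR-199b-3p -1.33, miR-200b-3p -0.67, miR-2137 -0.0097, miR-214-3p -0.77, miR-23a-3p 0.14 and miR-99b-5p 0.0476.

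With 1 library left out, the range was -0.12 to 0.20 for let-7d-5p, -0.71 to 0.38 for miR-10a-5p, -0.48 to 0.38 for miR-125a-5p, -0.83 to 1.36 for miR-133a-3p, -0.10 to 0.57 for miR-150-5p, -0.62 to 1.53 for miR-199b-3p, -0.37 to 0.74 for miR-200b-3p, -0.62 to 1.98 for miR-214-3p, -0.34 to 0.14 for miR-23a-3p, -0.42 to 0.10 for miR-26a-5p, -0.11 to 0.55 for miR-29a-3p, -2.11 to 0.0608 for miR-3060-5p, -0.20 to 0.0761 for miR-30d-5p and -0.39 to 0.0521 for miR-99b-5p. The median half-width of the interval was 2.40 for means under 10 and 0.92 for means over 1000, though the widest single interval was that of miR-6538 (3.41).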
